A study of Mus musculus with 2 samples.

Results

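The cytosolic ribosomal protein genes encode the protein part of the ribosome that translates nuclear messages. They were taken from a mouse gene table by symbol, as protein-coding genes named Rpl or Rps with a number, Rplp0 to Rplp2 and Rpsa. Pseudogenes and the Rps6k kinases were left out. This gave 83 of 21887 nuclear protein-coding genes, 51 of the large and 32 of the small ribosomal subunit. A gene was said to have a peak when the summit of a listed peak lay inside it or within 1 kb of one of its ends.

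The peaks mark YY1, a zinc finger transcription factor, in mature adipocytes freed by collagenase from the inguinal fat pad, a subcutaneous depot. The mice were male wild-type C57 animals of 8 to 10 weeks, without any transgene named in the labels. One library stands for housing at room temperature and 1 for 7 days of cold stress, so replicate spread is unknown for every contrast of the conditions. The labels name the assay ChIP-seq, but the protocols are those of CUT&Tag: a transposase bound to the antibody cuts DNA beside the protein, and can also cut open chromatin. How many mice were pooled is not stated in the labels.

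The ribosome joins a small subunit, which reads the message, to a large subunit, which links amino acids and passes the new chain through an exit tunnel. Its proteins are needed in nearly equal numbers, and their genes are among the most strongly transcribed in most cells. The genes are short, and their promoters are known for a pyrimidine tract at the transcription start (the TOP element, through which mTOR signalling controls translation) and for sites of a few common factors, YY1 among them. Many of these genes also carry small nucleolar RNA (snoRNA) genes in their introns.

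The room temperature list held 165 peaks and the cold list 1259. The depth of the libraries is unknown. The lowest local background of each list was divided by its smallest peak width (245 bp at room temperature, 248 bp after cold). This put the cold library at 1.05 times the depth of the room temperature library. Peak strength is given as pileup, the number of fragments over a summit, recovered from the authors' fold enrichment and p-value. Its exact 95% Poisson interval covers counting error only. The median summit held 13 fragments in the room temperature library, against 20 in the cold one. Entries of the former list have 30 in their names and those of the latter 4, with no explanation in the labels, so the baseline temperature rests on the label alone. Of 6 adipocyte, 4 macrophage and 4 preadipocyte or fibroblast marker genes, 0 had a peak in either list, and of 4 endothelial markers 1 had one after cold, Pecam1. Binding does not measure expression, so the cell type could not be checked from these data.

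After cold, 19 of the 83 ribosomal protein genes had a YY1 peak, or 22.9% (exact 95% Clopper-Pearson interval 14.4 to 33.4). Of all protein-coding genes, 6.42% had one. At room temperature 0 of the 83 genes had a peak, where 0.864% of all protein-coding genes did. A count of 0 of 83 allows a share of up to 4.35%, so the family is not set apart there. The nearest room temperature summit to any of the 83 genes lay 11441 bp away. When the cold list was reduced to its 165 strongest entries by q-value, the length of the room temperature list, 1 ribosomal protein gene had a peak (1.2%), beside 0.905% of all protein-coding genes. The other 18 members with a peak ranked below those entries.

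**Figure D1:**
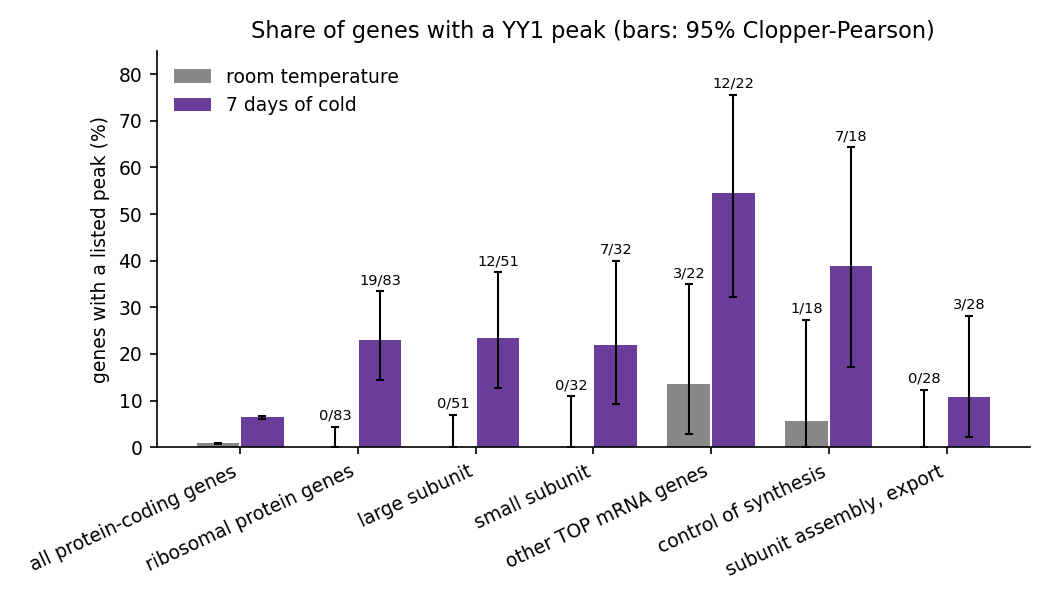
Percent of genes with a listed YY1 peak in each library, for all protein-coding genes, the ribosomal protein genes, their subunits and 3 related gene lists. Error bars are exact 95% Clopper-Pearson intervals and the fractions give the genes with a peak of all genes in the group. The large and small subunit reached 23.5% and 21.9% after cold, and both were at 0 at room temperature.

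The large and the small subunit carried peaks at similar rates, with a wide interval on the difference. After cold, 12 of the 51 large subunit genes (23.5%, 12.8 to 37.5) and 7 of the 32 small subunit genes (21.9%, 9.28 to 40) had one. The difference was 1.65 percentage points, with a 95% Newcombe interval from -17.7 to 18.8 that treats the genes as independent draws. One more small subunit gene would have brought that share to 25%, past the large subunit. Its sign depended on the genes counted. Among the 63 genes with an annotated start, 8 of 39 large (20.5%) and 5 of 24 small subunit genes (20.8%) had a peak by the same rule, a difference of -0.321 points. With only summits within 1 kb of a start counted in these 63 genes it was -2.88 points.

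The pileups of the peaks differed more than their number. Large subunit peaks had a median of 23.5 fragments (9 to 59) and small subunit peaks a median of 13 (8 to 21). The ranges overlap, and 7 of the 12 large subunit peaks stood above the highest small subunit peak. The peaks of both subunits come from 1 library, and the difference has no test. Over all 19 genes the median was 17 fragments, beside 21 for the 1191 cold peaks at protein-coding genes, and 32.5% of those peaks were weaker than the ribosomal protein median. Of the 19 peaks, 8 had 21 fragments or more.

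**Figure D2:**
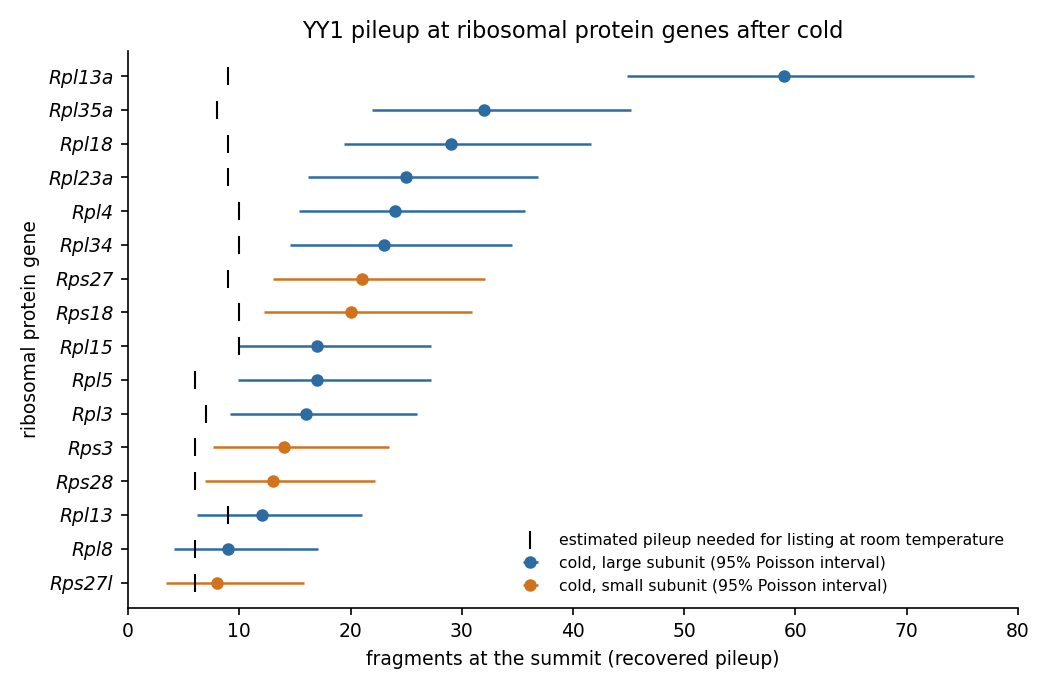
Pileup at the cold summit of 16 ribosomal protein genes with a peak, with exact 95% Poisson intervals, in blue for the large and in orange for the small subunit. Black ticks mark the pileup estimated to be needed for a listing at room temperature, between 6 and 10 fragments. Rpl13a, at 59 fragments, stands apart from the other genes shown, which lie between 8 and 32.

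The strongest peak in the large subunit was that of Rpl13a, whose protein also acts off the ribosome in translational control of inflammatory messages. It carried 59 fragments (44.9 to 76.1) on a background of 1.33 and took rank 64 of the 1259 cold entries (chr7:45128643-45129307, mm10). The summit lay 247 bp outside the gene, before its transcription start. The next member held rank 243. The interval of Rpl13a did not touch the pileup of any other member, and only the interval of Rpl35a, up to 45.2, reached into it.

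Next came Rpl35a with 32 fragments (21.9 to 45.2; chr16:33056342-33056718), a gene mutated in Diamond-Blackfan anaemia. Rpl18, which encodes a structural protein of the large subunit, carried 29 fragments (19.4 to 41.6; chr7:45715213-45715595). Rpl23a, whose protein sits at the exit of the tunnel where the signal recognition particle docks, carried 25 fragments (16.2 to 36.9; chr11:78183215-78183661). Their intervals overlap, so no order among these 3 genes stands out beyond counting error.

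A further 7 large subunit genes ranged from 24 fragments at Rpl4 to 9 at Rpl8. Rpl4, whose protein lines the exit tunnel, had an interval of 15.4 to 35.7 fragments. Rpl34 had 23 fragments (14.6 to 34.5). Rpl15 and Rpl5 had 17 fragments each (9.9 to 27.2). The protein of Rpl5 carries a small ribosomal RNA into the large subunit together with that of Rpl11, and both bind the p53 regulator Mdm2. Rpl11 had no listed peak. Rpl3 and Rpl8, whose proteins reach towards the peptidyl transferase centre, had 16 (9.15 to 26) and 9 fragments (4.12 to 17.1), and Rpl13 had 12 (6.2 to 21).

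In the small subunit the strongest peak was that of Rps27 with 21 fragments (13 to 32.1; chr3:90213263-90213868). Rps18, whose protein lies in the head of the subunit, had 20 fragments (12.2 to 30.9; chr17:33956032-33956287). Rps3, whose protein lies at the entry of the message channel, had 14 (7.65 to 23.5; chr7:99483237-99483642). Rps28 had 13 (6.92 to 22.2; chr17:33824269-33824868). These 4 intervals overlap. Rps27l, a paralogue of Rps27 that p53 is known to induce, had 8 (3.45 to 15.8) and was the weakest of the 19. It was also the only member whose summit lay more than 1 kb, at 1355 bp, from an outer end of the gene. That summit was at -107 bp from an inner annotated start.

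**Figure D3:**
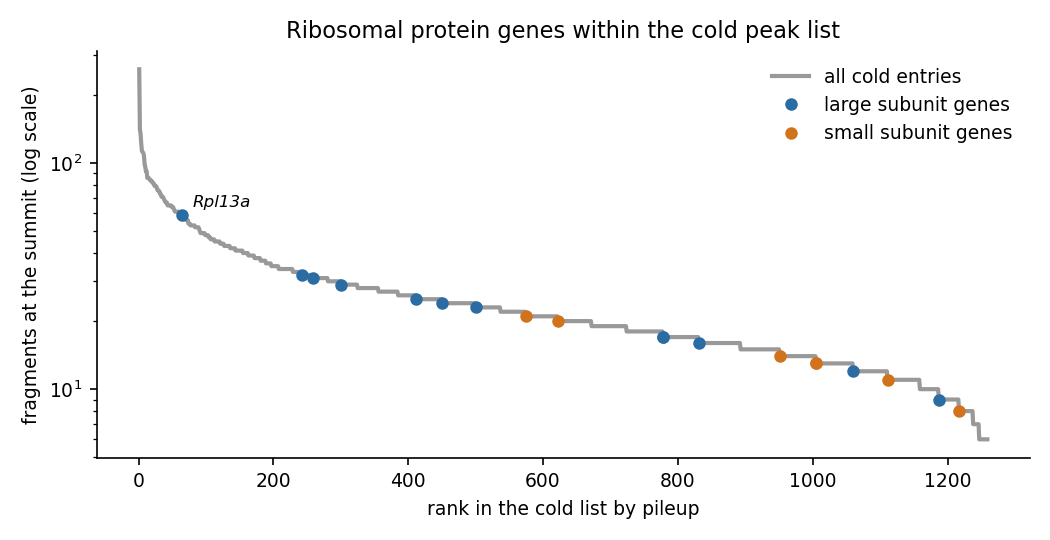
All 1259 cold entries ranked by pileup (grey line, log scale), with the peaks at large (blue) and small (orange) subunit genes. Rpl13a holds rank 64, and the other members run from rank 243 to rank 1217, with all small subunit peaks at rank 574 or lower in the list.

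Of the 19 cold peaks, 0 had a counterpart at room temperature, where 13% of all cold peaks did. With only 19 peaks, a count of 0 still allows a share as high as 13%, so the family is not set apart by it. A missing entry is not a measured 0. For each site, the pileup needed for a listing at room temperature was estimated. The estimate used the weakest p-value in that list (−log10 p of 5.18) and the cold background scaled by depth, which gave 6 to 10 fragments. At peaks shared by both lists the room temperature background was 0.735 times the cold one (median; quartiles 0.498 and 0.987). Shared peaks had to pass the listing at room temperature, which can favour a low background there. That ratio therefore does not show whether the estimates at the 19 sites are too high or too low. Of the 1174 cold entries within the pileup range of the ribosomal protein peaks, from 8 to 59 fragments, 118 (10.1%) were listed at room temperature. Listing moved with peak strength: 13.3% of cold entries with at least 8 fragments were listed, and 71.6% of those with at least 59.

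Rpl13a was the member for which a missing entry was least common. Of the 67 cold entries with at least 59 fragments, 48 (71.6%) were listed at room temperature. At this gene 9 fragments were needed for a listing by the estimate. If the site held 8 or fewer at room temperature, its cold pileup was at least 7.38 times higher. At shared peaks the cold pileup was 3.09 times the room temperature pileup (median of 163 cold entries; quartiles 2.5 and 3.98). The same bound was 4.57 at Rpl35a, 3.62 at Rpl18, 3.4 at Rpl5 and 3.12 at Rpl23a. It was 2.8 at Rps3. In all, 6 of 19 members had a bound above the median of shared peaks, and 3 had one above the upper quartile. Shared peaks had to pass the listing in the weaker library, which leaves out high ratios, and the bounds carry the counting error of the cold pileup. The bounds also rest on the estimated pileup needed for a listing.

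Where the strand was known, the summits sat at the 5' side of the genes. Strand and transcription start were known for 13 of the 19 genes from the RefSeq promoter table, and at all 13 the nearer gene end was the one where transcription starts. Of these summits 7 lay downstream and 6 upstream of the nearest annotated start. At 6 genes the summit lay between 127 and 237 bp downstream: Rps27 (237 bp), Rpl13 (229), Rpl5 (212), Rpl4 (209), Rps3 (180) and Rpl15 (127). At Rpl35a the summit was 32 bp downstream. It was upstream at Rps28 (-9 bp), Rpl34 (-39), Rps27l (-107), Rpl13a (-247) and Rps18 (-491). At Rpl18 the summit was at -2658 bp from the annotated start, which lies well inside the gene, and 54 bp outside the gene's outer end. Exons and introns were not in the table, so it is not known which summits were intronic. The median distance to the nearer gene end was 210 bp, beside 178 bp over all protein-coding genes that had a cold peak. Of the 19 summits 13 (68.4%) lay inside the gene, beside 75.7% of all cold summits within 1 kb of a protein-coding gene end.

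**Figure D4:**
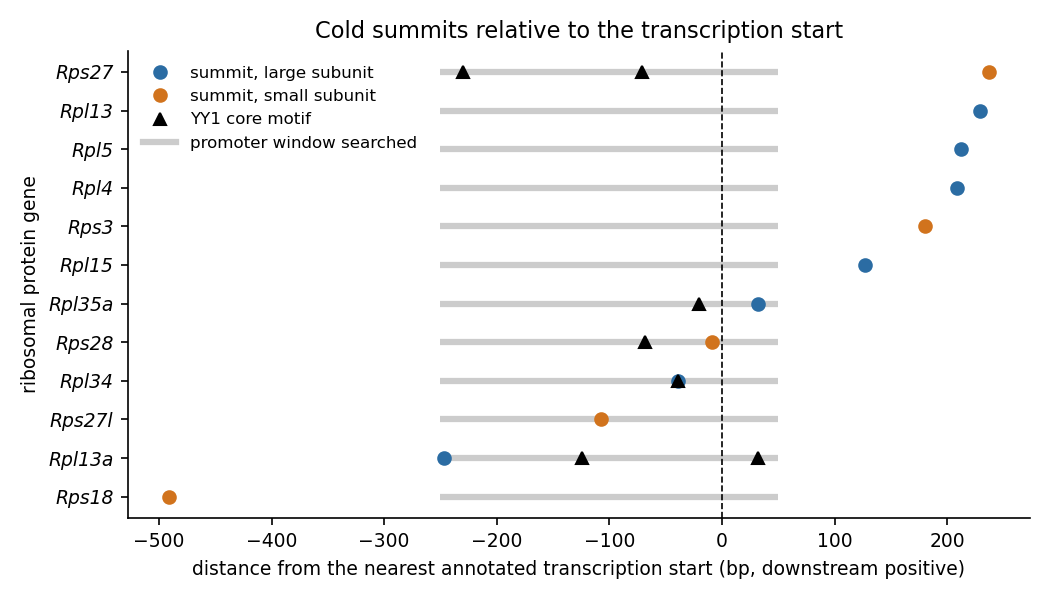
Cold summits of 12 ribosomal protein genes relative to the nearest annotated transcription start (dashed line), with the promoter window that was searched (grey) and the YY1 core motifs in it (triangles). Rpl18, at -2658 bp from its annotated start, is off the axis. At Rpl34 the motif and the summit coincide, and 6 summits lie 127 to 237 bp downstream of the start, outside the window searched.

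The promoter sequences, from 250 bases before to 50 after the start, came from RefSeq (GRCm38.p6) and matched 63 of the 83 genes. They were searched on both strands for the YY1 core CCATNTT, whose other strand reads AANATGG. It was present in 5 of the 13 matched genes with a cold peak (38.5%, 13.9 to 68.4) and in 14 of the 50 matched genes without one (28%, 16.2 to 42.5). It was found in 17.3% of all protein-coding genes with an entry, and in 51.4% of those with a cold peak. The longer form GCCATNTTG, which contains the core, was in 2 of 13 and 1 of 50 genes, beside 3.32% of all and 27.1% of those with a cold peak. In only 5 of the 13 genes did the cold summit itself fall in the window, so for the other 8 the sequence at the summit was not searched.

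All 5 genes with a cold peak and a core had at least 1 core inside the peak. Their sequences are shown because the core can be set against the summit, from 130 bases before the start to 30 after it, or to the end of a core that begins there, 5′ to 3′ on the gene's strand, with every core in capitals. The windows are chr7:45128711-45128875 (minus strand) for Rpl13a, chr16:33056384-33056543 (plus) for Rpl35a, chr3:130730369-130730528 (minus) for Rpl34, chr3:90213619-90213778 (minus) for Rps27 and chr17:33824533-33824692 (minus) for Rps28.
Rpl13a: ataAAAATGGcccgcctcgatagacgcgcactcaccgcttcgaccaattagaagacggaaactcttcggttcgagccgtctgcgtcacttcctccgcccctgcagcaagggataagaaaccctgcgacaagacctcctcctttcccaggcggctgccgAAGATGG
Rpl35a: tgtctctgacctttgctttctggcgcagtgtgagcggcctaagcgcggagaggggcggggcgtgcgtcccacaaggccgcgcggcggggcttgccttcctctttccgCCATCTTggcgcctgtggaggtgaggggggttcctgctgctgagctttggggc
Rpl34: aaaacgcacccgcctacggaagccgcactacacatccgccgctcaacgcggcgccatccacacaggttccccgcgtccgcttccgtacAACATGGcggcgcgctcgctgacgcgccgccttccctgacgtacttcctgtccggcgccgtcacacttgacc
Rps27: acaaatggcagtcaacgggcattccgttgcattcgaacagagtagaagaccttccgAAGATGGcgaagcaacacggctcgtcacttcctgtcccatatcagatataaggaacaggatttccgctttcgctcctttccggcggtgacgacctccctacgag
Rps28: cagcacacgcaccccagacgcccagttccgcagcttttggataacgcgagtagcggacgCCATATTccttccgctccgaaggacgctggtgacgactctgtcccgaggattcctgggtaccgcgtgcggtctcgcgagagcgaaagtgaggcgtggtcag

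Positions are given for the first base of a core on the gene's strand, counted from 1 at the start and negative before it. At Rpl34 the summit base fell within the core at position -42, which was part of the longer form. Rpl35a also held the longer form, with the core at position -23 from the start nearest to the summit and 49 bp from the summit. Both genes have other annotated starts. From those the same core is at positions 10 and 39 in Rpl35a, thus downstream, and at position -103 in Rpl34. At Rps28 the core was at position -71, 56 bp from the summit. At Rpl13a, the strongest peak, the core at position -127 was 120 bp from the summit and the one at position 29 was 275 bp from it. At Rps27 the core at position -74 was 305 bp from the summit, and a further core at position -233 lay outside the peak. These distances hold for cores inside the window only. The summit of Rpl13a lay at its upstream edge and that of Rps27 outside it, so a nearer core there was not searched for.

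A core did not go with a listing in every case. Among the 14 genes with a core and no peak were Rps19, the gene most often mutated in Diamond-Blackfan anaemia, Rps15a, Rpl19, Rpl7a and Rpl10. Rpl10, whose protein completes the large subunit late in its assembly, was the 1 gene without a peak that held the longer form, shown here with its flanks (chrX:74270585-74270613, plus strand, core in capitals).
Rpl10: gctctccgcccAATATGGccaggcggaag
This core is at position -220, farther from the start than those at Rpl34, Rpl35a or Rps28. Cores near the start also occurred in genes without a peak, at position -4 in Rps15a and 19 in Rpl7a. At Rps27, which had a peak, the further core was at position -233.

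Other promoter elements occurred at shares that overlap between genes with and without a peak. A run of at least 6 pyrimidines over the start, the form of a TOP element, was present in 20 of the 63 matched genes (31.7%, 20.6 to 44.7), beside 7.35% of all protein-coding genes. It was in 5 of the 13 genes with a cold peak (38.5%) and in 15 of the 50 without one (30%). Only a run that covered the annotated start base was counted. A run that begins just after that base, as in the Rpl13a sequence above, was missed, so these shares can be too low. Rps18 and Rpl15 are shown from 60 bases before the start to 30 after it because both have the run and a cold peak but no YY1 core in the window. The run is in capitals (chr17:33955636-33955725 and chr14:18270957-18271046, both minus strand).
Rps18: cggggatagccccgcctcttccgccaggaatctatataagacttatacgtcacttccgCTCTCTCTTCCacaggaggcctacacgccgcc
Rpl15: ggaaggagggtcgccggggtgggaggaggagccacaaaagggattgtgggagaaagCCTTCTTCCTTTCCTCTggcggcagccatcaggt
The ETS family motif CCGGAAG was in 4 of 13 genes with a peak and 22 of 50 without (30.8% and 44%), beside 12.9% of all genes. The Sp family motif GGGCGG was in 8 of 13 and 30 of 50 (61.5% and 60%), beside 49.2%. TATAAA was in 1 of 13 and 6 of 50, beside 14.8%. All intervals of the 13 and the 50 overlap. A match gives only letters, and none of them was tested for binding.

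Some summits lay at more than 1 gene. At 6 of the 19 members (31.6%) the summit was also within 1 kb of an end of another protein-coding gene, beside 25.7% of the 1017 cold summits at protein-coding gene ends. These neighbours were the cilium gene Iqcg at Rpl35a, the kinetochore gene Zwilch at Rpl4, Nkiras1 at Rpl15, the GTPase gene Rab13 at Rps27, the vesicle tethering gene Vps52 at Rps18 and the complex I subunit gene Ndufa7 at Rps28. The summit at Rpl18 lay inside the sphingosine kinase gene Sphk2, 206 bp from its start. In the 5 pairs with both strands known, the genes lay on opposite strands. At Rps28 the summit was 1 bp from the start of Ndufa7 and 9 bp from that of Rps28. At Rps18 it was 66 bp from a start of Vps52 and 491 bp from that of Rps18. These 2 members lost their peak when each summit was counted only for the nearest gene end. That left 17 members with a peak, 12 of the large and 5 of the small subunit (23.5% and 15.6%).

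Genes that host snoRNAs were among those with a peak. Of the 30 members with at least 1 snoRNA gene inside, 10 had a cold peak (33.3%, 17.3 to 52.8), and of the 53 others 9 had one (17%, 8.07 to 29.8), beside 6.42% of all protein-coding genes. These intervals overlap. Rpl4 holds 5 snoRNA genes, Rpl13a holds 4, and Rpl23a, Rpl5 and Rpl3 hold 3 each. Hosts without a peak included Rpl7a with 4 and Rps12, Rpsa and Rpl17 with 3 each. This difference was not tested. Gene length did not separate the members: the median was 3183 bp with and 3157 bp without a peak, beside 17169 bp for all protein-coding genes. The 83 genes lay on 19 chromosomes and the 19 with a peak on 11.

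In all, 64 ribosomal protein genes had no listed peak in either library. In the large subunit these were the stalk genes Rplp0, Rplp1 and Rplp2, the 5 paralogues Rpl3l, Rpl10l, Rpl32l, Rpl36al and Rpl39l, and Rpl6, Rpl7, Rpl7a, Rpl9, Rpl10, Rpl10a, Rpl11, Rpl12, Rpl14, Rpl17, Rpl19, Rpl21, Rpl22, Rpl23, Rpl24, Rpl26, Rpl27, Rpl27a, Rpl28, Rpl29, Rpl30, Rpl31, Rpl32, Rpl35, Rpl36, Rpl36a, Rpl37, Rpl37a, Rpl38, Rpl39 and Rpl41. In the small subunit they included Rpsa, Rps2, Rps3a1, Rps4x, Rps6, Rps7, Rps9, Rps10, Rps12, Rps13, Rps14, Rps15, Rps15a, Rps16, Rps19, Rps20, Rps21, Rps23, Rps24, Rps25, Rps26, Rps27a and Rps29. Rps6, the target of the S6 kinases downstream of mTOR, was thus unlisted. Just outside the window were Rpl24, 2257 bp from a cold summit of 23 fragments at Zbtb11, and Rpl7a, 2978 bp from one of 26 fragments at Surf1 and Surf2. Just inside it, apart from Rps27l, the most distant was Rps18 at 491 bp. The family has 324 pseudogenes in the gene table, and 0 of them had a peak in either list. That allows a share of up to 1.13% (exact 95% interval), above the 0.144% of all pseudogenes that had one after cold.

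Other genes of the translation apparatus carried peaks as well. Of 22 other genes counted among those with TOP messages, chosen with earlier results of these data known, 12 had a cold peak (54.5%, 32.2 to 75.6), beside 6.42% of all protein-coding genes. At room temperature 3 had one (13.6%, 2.91 to 34.9), beside 0.864%. Their median cold pileup was 23.5 fragments. Naca, a subunit gene of the complex that receives nascent chains at the tunnel exit, had 53 fragments after cold (39.7 to 69.3), against 14 in the room temperature library (7.65 to 23.5). The elongation factor gene Eef1a1 had 33 after cold (22.7 to 46.3), and the initiation factor gene Eif3e had 37 (26.1 to 51).

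A further 18 genes, also chosen with earlier results known, control ribosomal protein synthesis. Of these, 7 had a cold peak (38.9%, 17.3 to 64.3), beside 6.42% of all protein-coding genes. At room temperature 1 had a peak (5.56%, 0.141 to 27.3), beside 0.864%. That 1 was Akt1s1, an inhibitory subunit of mTOR complex 1, with 81 fragments after cold (64.3 to 101), against 15 (8.4 to 24.7). Others after cold were Tsc1, a restraint on mTOR, with 32 fragments (21.9 to 45.2), Mtor with 21 and Rptor with 21 (both 13 to 32.1). Of 28 genes of subunit assembly and export, 3 had a cold peak (10.7%, 2.27 to 28.2) and 0 a room temperature peak. They were Grwd1, a chaperone gene for Rpl3, with 27 fragments, the small subunit nuclease gene Nob1 with 17 and Mrto4 with 14. Their interval includes the 6.42% of all protein-coding genes.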

How the data were processed

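The submitters' processing notes name MACS2, BWA, SAMtools, deepTools, DESeq2 and the mm10 build, without versions or settings. How duplicates, multi-mapping reads and a control were treated is not stated there. Peaks were called per sample, as each library has its own deposited list. Each entry holds a deposited score (10 times the −log10 p, cut to a whole number), a linear ratio of fold enrichment at the summit, a −log10 q and a −log10 p, and a summit offset. The members and gene lists were chosen with earlier results of these data known.

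Pileups were recovered as the whole number that satisfied both fold = (pileup + 1) / (background + 1) and the Poisson p. The largest miss was 0.00019 on the −log10 scale. Simulated entries gave back all pileups (165 and 1259), a check of the inversion only. Coordinates are 1-based. Genes came from a RefSeq table of GRCm38.p6, the assembly mm10 names, and the planned distance to a transcription start used the promoter table's strand. Of the 83 members 20 had no promoter entry. Promoters of Rpl18, whose start lies far from its summit, and of Rps3 were not printed. Named were all members with a peak, neighbours within 1 kb, members 1 to 5 kb from a summit and up to 4 values per list; Rpl15, Rpl34, Rps28 and Rpl10 were chosen for printing after their sequences were seen. With 1 library per condition no test was made. Alternatives covered the window, gene ends, nearest gene, whole intervals, threshold, list length, members, starts, strength measure, motif and overlap. Python 3.11.15, scipy 1.17.1, pandas 2.3.3 and statsmodels 0.14.6 were used. A few genes are not reported here by name and were left out of the plot of pileups by gene and of the wider member list among the alternatives; the counts of the family include its own members.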

Additional observations from a re-analysis of the deposited data

How the results depend on the processing

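No paired analysis was possible because there is only 1 library a condition, and none could be left out. Of the values under an alternative, 69 stayed and 6 moved. Staying meant within 1.5 times for shares of genes with a peak and of peaks in both lists, and within the 95% interval for peak strength (29.8 to 35.2), motif shares and the difference between subunits. The count of genes with a promoter entry only was chosen after seeing the data. With only the 165 strongest cold entries, the share of genes with a cold peak fell to 1.2% for all ribosomal protein genes, 1.96% for the large subunit, 0% for the small subunit and 0.905% for all protein-coding genes, since fewer peaks were used. By −log10 q in place of pileup, 38.5% of cold peaks at protein-coding genes were weaker than the ribosomal protein median. With the longer motif, 2% of members without a peak held it. The difference between large and small subunit ran from -2.88 to 7.9 percentage points, inside its interval under every alternative run. Unknown depth and missing replicates limit every comparison, and a site under about 6 to 10 fragments could not be listed.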
